A study of Mus musculus with 57 samples.

Results

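The genes described here are 40 genes of the G1/S transition and of DNA replication, taken from a fixed list of symbols and measured in 56 single mouse T helper 2 (Th2) cells. The table writes symbols in lower case (mcm2, mcm3, rfc2, gins1, pcna); the usual mouse spelling is used below. All 40 are among the 10565 genes of the deposited table, and 39 of them were detected in at least 10 cells, against 7871 of the 10565 genes overall. The exception was Dscc1, which encodes a subunit of the alternative clamp loader for sister chromatid cohesion and was detected in 6 cells. A gene counts as detected in a cell at 1 TPM (a transcript level scaled by transcript length and by the total of each cell) or more.

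The cells were wild type CD4+ T cells from the spleens of C57BL/6 mice aged 8 weeks. During 5 days of culture, interleukin-4 and blocking of interferon gamma by an antibody drove them to the Th2 fate, and interleukin-2 was supplied from day 2. They were then stimulated again through CD3 and CD28 and captured one by one with Fluidigm C1 microfluidics. They form 1 group and are numbered in 5 sets (T1 with 8 cells, T2 to T5 with 12 each) whose meaning the labels do not give. Since the labels tie no cell to an animal or culture, the cells are 1 sample, and correlations over them are descriptions without p-values.

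A cell that prepares to divide loads the MCM2-7 helicase onto replication origins in G1, under control of the loader protein Cdc6, and fires these origins in S phase. The GINS complex then joins the helicase, primase and polymerase alpha lay down primers, and the RFC complex loads the sliding clamp PCNA, which holds the replicative polymerases on DNA. Many of these genes are targets of E2F transcription factors, which the retinoblastoma proteins hold in check until cyclin-dependent kinases act in late G1. Activated T cells divide rapidly during such a culture, so replication genes are part of the response to antigen receptor and interleukin-2 signals.

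The labelled cell type was seen in its markers. Cd3d, Cd3e, Cd2 and the Th2 regulator Gata3 were detected in 56 of 56 cells, and Cd4 in 37. Of 20 markers of other blood cells, 5 were in the table; Cd74 was detected in 32 cells, Nkg7 in 24, Cpa3 in 5, Alas2 in 2 and Cd8b1 in 1. The summed level of these 5 markers ranged from 0 to 5608 TPM per cell, with a median of 67 TPM, and its Spearman rho with the replication score defined below was -0.0034. Between 2679 and 8396 genes were detected per cell, and 0 pairs of cells held identical values. Cell T3_5 had the most genes, with all 40 replication genes among them. Cell T3_2 had 3096 genes, with a summed level of 106 TPM for the replication genes and 5010 TPM for 50 mitotic genes. Most of the latter sum lay in Racgap1 (2424 TPM) and Ncaph (2085 TPM), and T3_2 had only 17 of the 50 mitotic genes. Neither T3_5 nor T3_2 held the highest value of any replication gene. No doublet caller was run, and whether T3_5 held more than 1 cell was not tested.

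The median cell had 26 of the 40 replication genes (SD over cells 8.98), with 4 genes in the lowest cell, T4_7, and 40 in the highest, T3_5. Their summed level was 77 TPM in T4_7, 3332 TPM in the median cell and 10360 TPM in T3_6. Cells filled the range between these ends. No gap wider than 3 genes appeared when cells were ordered by how many of the 40 they had. Over the 40 genes, the median gene was detected in 36 cells, and 27 genes were detected in at least 28 cells. For all 7871 genes the median was 30 cells.

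**Figure D1:**
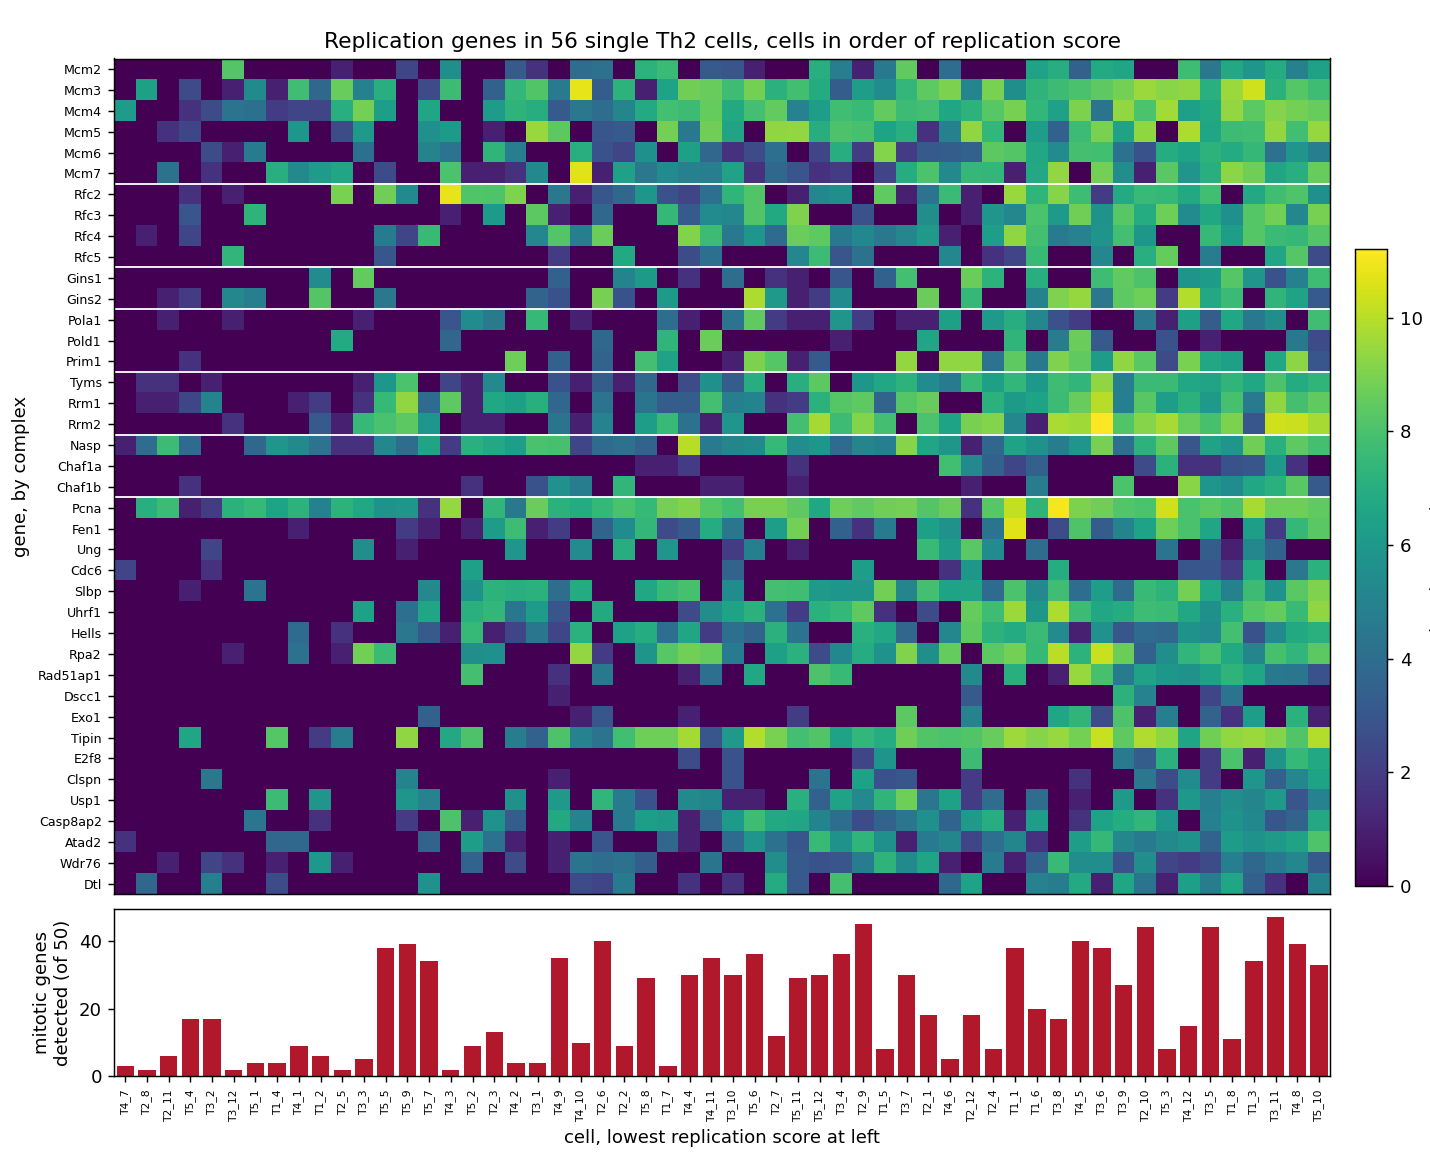
Levels of the 40 replication genes (rows, grouped by complex; colour, log2(TPM + 1)) in the 56 cells (columns, ordered by replication score), with the number of 50 mitotic genes detected in each cell as bars below. Detection filled in gradually from T4_7, with 4 of 40 genes, to cells such as T5_10, with 37. Cells with few and with many mitotic genes both occurred between the ends of the order. At its low end T4_7, T2_8 and T2_11 had 3, 2 and 6 mitotic genes. At its high end T5_10, T4_8 and T3_11 had 33, 39 and 47.

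The MCM genes encode the ring of subunits that unwinds DNA, and each ring holds a copy of every subunit from Mcm2 to Mcm7. Mcm3 and Mcm4 were each detected in 51 of 56 cells (91.1%, exact Clopper-Pearson 95% interval 80.4 to 97, which covers counting error only). Mcm7 was detected in 45 cells, Mcm6 in 41, Mcm5 in 40 and Mcm2 in 31 (55.4%, 41.5 to 68.7). Some MCM transcript was found in every cell: 19 cells had all 6 genes, 18 had 5, and 4 cells had only 1.

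The subunits differed in level although the protein ring contains them equally. Mcm3 ranged from 0 to 1770 TPM, with a median of 148 and a mean of 243 (SD 327). Mcm4 ranged from 0 to 799 TPM (median 111.5, mean 186, SD 199), and its highest value was in T5_3. Mcm5 ranged from 0 to 908 TPM (median 62, mean 176, SD 249). These 3 genes were the most abundant of the ring, and the gaps between their means were smaller than the SD over cells. Mcm7 ranged from 0 to 1679 TPM (median 28, mean 124, SD 263). Its highest cell, T4_10, held 24.3% of its total and was also the highest cell for Mcm3. Mcm6 (0 to 565 TPM, median 11, mean 59.6, SD 105) and Mcm2 (0 to 352 TPM, median 1.5, mean 42.4, SD 76.5) were the lowest. All 6 ranges began at 0 TPM, so they had to overlap.

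**Figure D2:**
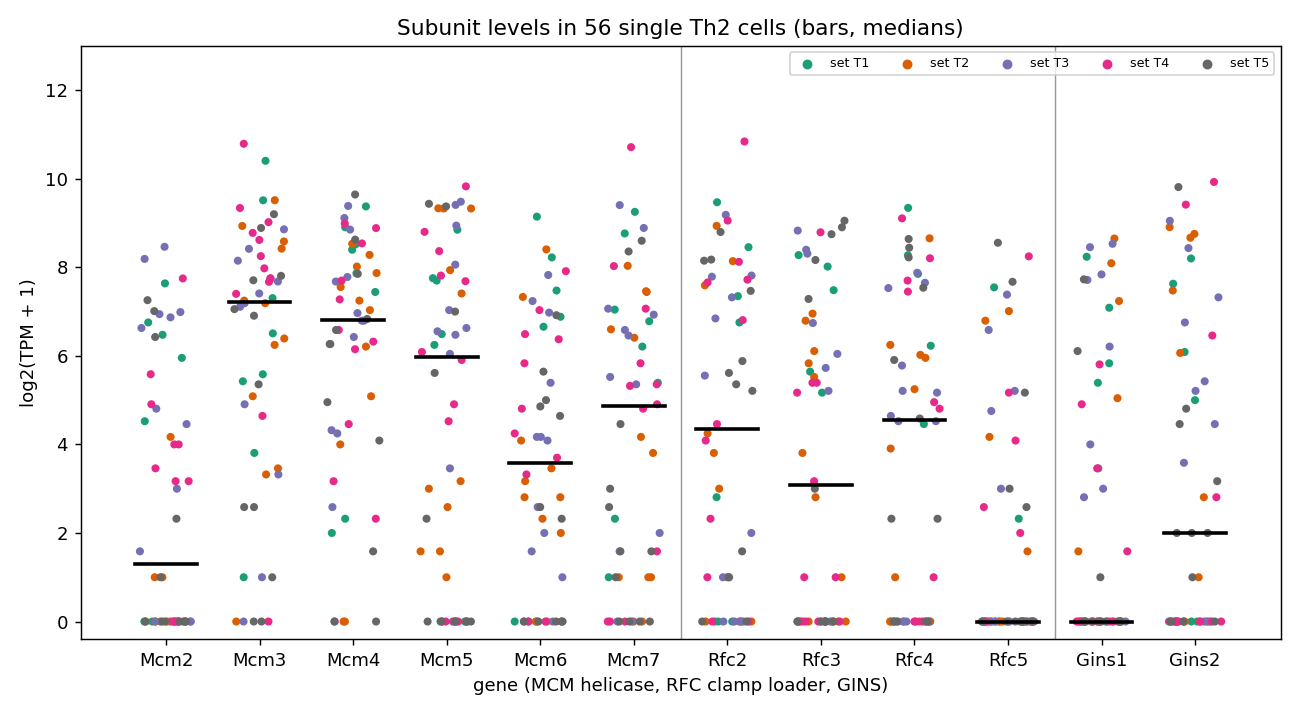
Level of each listed subunit of the MCM helicase, the RFC clamp loader and GINS in each of 56 cells, on a log2(TPM + 1) scale. Points are cells coloured by set and bars are medians. Mcm3 and Mcm4 were detected in 51 cells each, whereas Rfc5 and Gins1 were listed at 0 in most cells.

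To show what the MCM genes share beyond their protein complex, their promoters were read from RefSeq (build GRCm38.p6, from 250 bases before to 50 bases after the annotated start). A promoter was found for 31 of the 40 replication genes; Mcm4, Gins1, Gins2, Rfc2, Dscc1, Exo1, Tipin, Usp1 and Atad2 had none in that table. The E2F motif was searched as TTTCCCGC, TTTGGCGC, TTTCGCGC or TTTGCCGC on both strands. It was in a promoter of 13 of 31 replication genes (41.9%) and in 3 of 41 mitotic genes (7.32%), against 5.38% of the 5688 genes detected in at least 10 cells that had a promoter in the table. Of the 5 MCM genes with a promoter, Mcm3, Mcm5, Mcm6 and Mcm7 held it and Mcm2 did not. The first match in each, with 16 bases on either side, is shown with the E2F motif in capitals, next to the matches of Rfc3 and Pola1, so that the shared core can be read across complexes. Each is written 5′ to 3′ on the strand of its gene.
Mcm3 (chr1:20820270-20820309, minus strand): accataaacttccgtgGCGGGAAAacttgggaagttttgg
Mcm5 (chr8:75109340-75109379, plus strand): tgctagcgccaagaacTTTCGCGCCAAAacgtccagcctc
Mcm6 (chr1:128359792-128359831, minus strand): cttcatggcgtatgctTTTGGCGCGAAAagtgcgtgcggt
Mcm7 (chr5:138172025-138172064, minus strand): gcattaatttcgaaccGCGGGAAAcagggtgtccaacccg
Rfc3 (chr5:151651195-151651234, minus strand): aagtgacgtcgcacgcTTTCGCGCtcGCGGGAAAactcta
Pola1 (chrX:93632270-93632309, minus strand): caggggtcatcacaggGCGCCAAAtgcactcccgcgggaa

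In Mcm5 and Mcm6 a match on each strand overlapped, which gives the longer runs of capitals. The match of Mcm5 began 153 bases before the start, that of Mcm6 at 110, that of Mcm7 at 165, that of Pola1 at 138 and that of Rfc3 at 10, whereas that of Mcm3 lay after the start. The whole promoter of Mcm6 is printed because it held the E2F motif at 3 places, at 110, 106 and 47 bases before the start, together with the CCAAT box, a promoter element bound by the factor NF-Y. Both motifs are in capitals.
Mcm6 (chr1:128359656-128359955, minus strand): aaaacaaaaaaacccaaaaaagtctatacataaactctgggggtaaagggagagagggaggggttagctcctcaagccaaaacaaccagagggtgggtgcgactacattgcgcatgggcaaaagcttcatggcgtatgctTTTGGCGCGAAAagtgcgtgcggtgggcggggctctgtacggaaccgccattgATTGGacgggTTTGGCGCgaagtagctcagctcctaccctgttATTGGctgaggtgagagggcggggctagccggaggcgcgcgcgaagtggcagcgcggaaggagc

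The CCAAT box, searched as CCAAT on both strands, was in a promoter of 21 of 31 replication genes (67.7%) and 30 of 41 mitotic genes (73.2%), against 43% of the detected genes. The cell cycle homology region (CHR), an element known from promoters of mitotic genes and searched as TTTGAA on both strands, was in 5 of 31 replication genes (16.1%) and 28 of 41 mitotic genes (68.3%), against 14.8%. The replication genes thus stood above the detected genes in E2F matches and near them in CHR matches, and the mitotic genes the other way round. In the member promoters 1 E2F match overlapped a CCAAT match. A match of letters is a description and not a bound site.

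**Figure D3:**
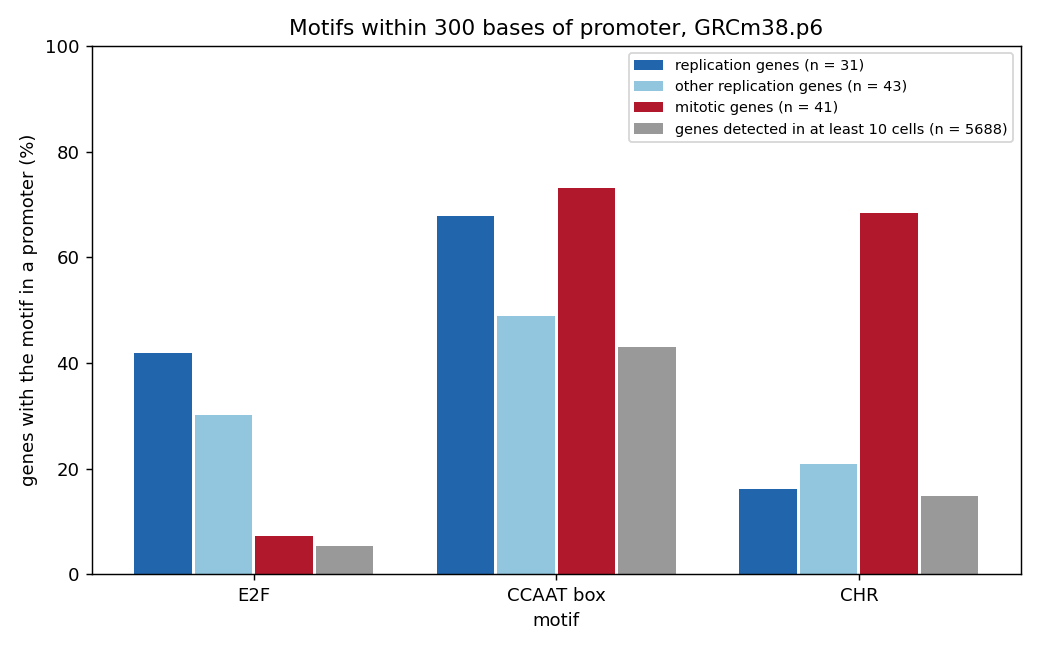
Share of genes with each motif in a promoter of 300 bases, for the 31 replication genes, 43 further replication genes, 41 mitotic genes and the 5688 detected genes that had a promoter in the table. The E2F motif was in 41.9% of the replication genes and 7.32% of the mitotic genes, and the CHR in 16.1% and 68.3%.

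Replication genes varied together over the cells. Over the 741 pairs of the 39 genes, the mean Spearman rho was 0.288, and 361 pairs (48.7%) had a rho of at least 0.3, against a mean of 0.0434 and 3.11% over all pairs of the 7871 genes. It held within every set, with means from 0.237 in T2 to 0.30 in T5. Without cells T3_2 and T3_5 it was 0.277. The genes share libraries, and the number of genes detected in a cell had a rho with them of 0.02 (Pold1) to 0.53 (Rfc4). With that number held constant in ranks, the mean was 0.241.

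Within the MCM complex the mean rho was 0.358 over 15 pairs, all above 0, and 10 of them reached 0.3. Mcm3 with Mcm7 had the highest value (0.57), followed by Mcm4 with Mcm6 (0.54) and Mcm3 with Mcm4 (0.51), and Mcm5 with Mcm6 had the lowest (0.19). The same 6 genes had a mean rho of 0.303 with the 33 members outside the complex. Within sets the mean inside the complex ran from 0.186 in T2 to 0.354 in T1. It was below the mean with members outside the complex in T2 (0.186 inside, 0.221 outside) and in T3 (0.245 inside, 0.303 outside), and above it in T1, T4 and T5. With the mitotic score held constant it was 0.329.

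The RFC clamp loader opens the PCNA ring and closes it around DNA. Of its small subunits, Rfc2 was detected in 41 cells (0 to 1835 TPM, median 19.5), Rfc4 in 36 (0 to 648, median 22.5), Rfc3 in 33 (0 to 530, median 7.5) and Rfc5 in 21 (0 to 375, median 0). All 4 were found together in 12 cells, and none in 7. Their mean rho was 0.259 over 6 pairs, beside a mean rho of 0.271 with members outside the complex. Within sets the mean inside RFC ran from 0.130 in T5 (0.246 with members outside) to 0.486 in T1 (0.252 with members outside). Rfc3 with Rfc4 (0.46) and Rfc4 with Rfc5 (0.39) were the only pairs to reach 0.3, and Rfc2 had values from 0.13 to 0.20 with the others. The highest rho of Rfc3 was with Pcna (0.58), the clamp that RFC loads. With helicase genes Rfc3 had 0.51 for Mcm4, 0.51 for Mcm5, 0.50 for Mcm3, 0.35 for Mcm6, 0.28 for Mcm7 and 0.16 for Mcm2. In its own complex Rfc3 had 0.46 with Rfc4, 0.19 with Rfc5 and 0.18 with Rfc2. With the mitotic score held constant, the mean within RFC was 0.135.

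GINS links the helicase to the polymerases. Gins1 was detected in 25 cells (0 to 401 TPM, median 0) and Gins2 in 31 (0 to 973 TPM, median 3). Both were found in 17 cells, only Gins1 in 8, only Gins2 in 14 and neither in 17. Their rho was 0.24, and within sets it ran from -0.17 in T3 to 0.68 in T4, so these cells give no stable value for the pair. The highest rho of Gins1 with any member was with Mcm5 (0.52), and that of Gins2 was with Rfc3 (0.50). Each is the highest of many pairs, so it cannot be weighed against the single value of Gins1 with Gins2.

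Between complexes, the mean rho was 0.268 for MCM with RFC (24 pairs), 0.286 for MCM with GINS (12 pairs) and 0.192 for RFC with GINS (8 pairs). The means inside the complexes, over the listed subunits only, were 0.358 for MCM, 0.259 for RFC and 0.24 for GINS (1 pair). Their order against the means between complexes changed from set to set. Inside MCM the mean was below that of MCM with GINS in T2 (0.186 and 0.247) and in T3 (0.245 and 0.272). The mean of RFC with GINS was -0.072 in T1 and 0.208 to 0.301 in the other sets, and without T1 it was 0.238, beside 0.222 inside RFC. It was 0.127 with the number of genes detected held constant and 0.103 with the mitotic score held constant. Of the pairs, 9 of 24, 5 of 12 and 1 of 8 reached 0.3.

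**Figure D4:**
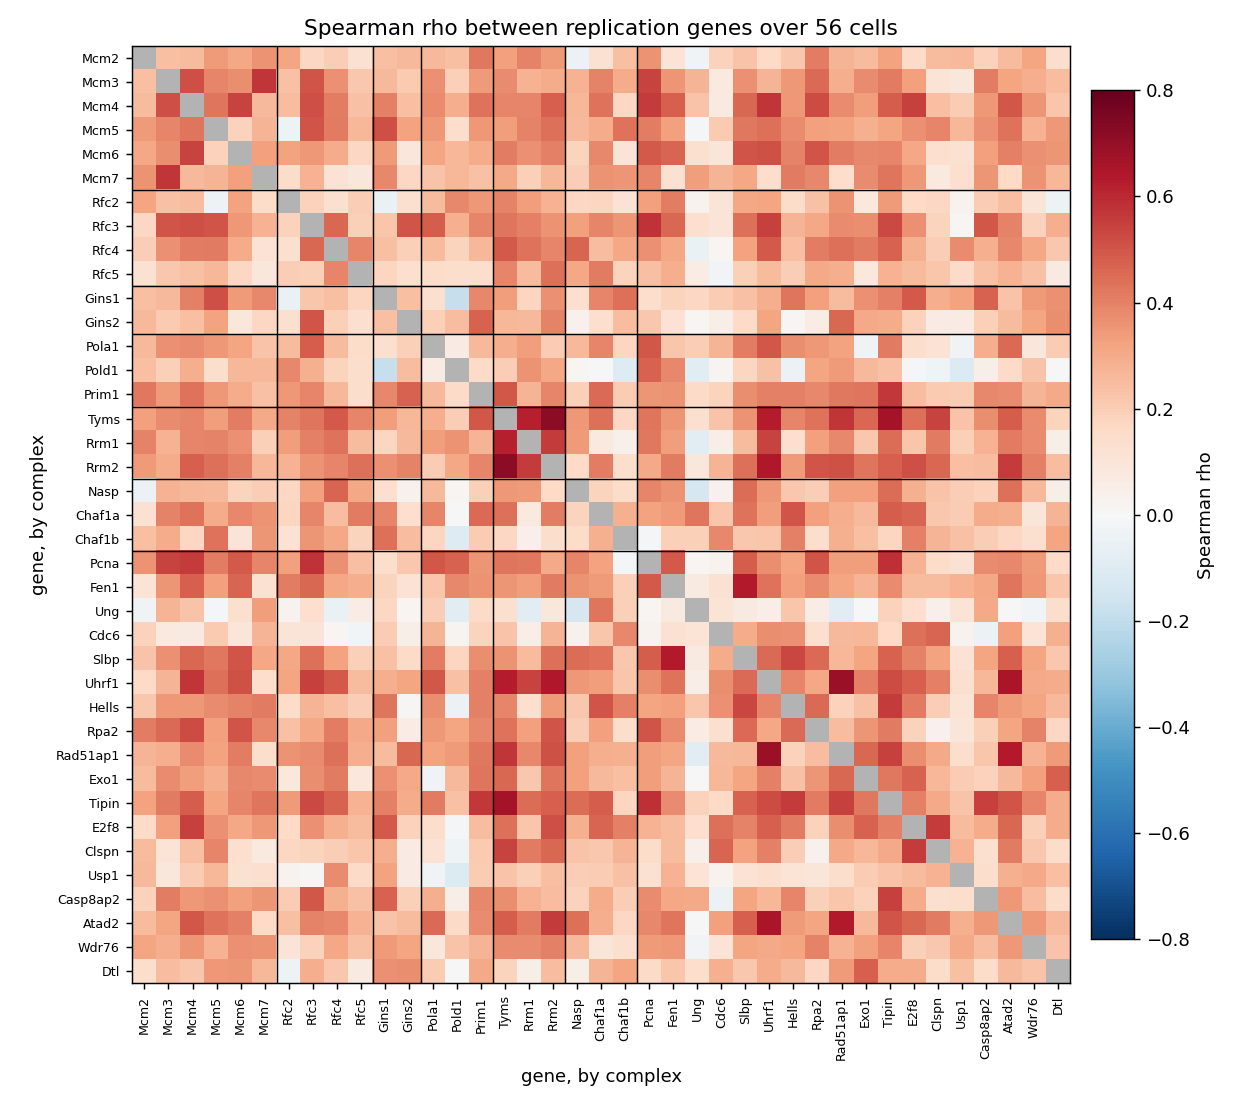
Spearman rho over 56 cells between each pair of the 39 replication genes detected in at least 10 cells, grouped by complex with lines between groups; grey, a gene with itself. Red covers most of the map across group borders, the darkest block is Tyms, Rrm1 and Rrm2 (mean 0.631), and the lowest pair is Gins1 with Pold1 (-0.18).

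Several of these values carry a limit from overlapping or copied genes, since the sources used here do not say whether reads were counted by strand. Exons of Gins2 and Gse1 overlap on opposite strands by 2758 bases in the GENCODE annotation of GRCm38, and the levels of these genes had a rho of 0.64. Rfc2 overlaps Lat2 (952 bases, rho -0.011), Rfc5 Wsb2 (499 bases, rho 0.18), Rfc4 Eif4a2 (175 bases, rho 0.34), Mcm7 Ap4m1 (321 bases, rho 0.02), and Chaf1a Ubxn6 (1862 bases, rho 0.15). Tyms has a pseudogene in the table, Tyms-ps, whose level had a rho of 0.93 with Tyms. Fen1 overlaps Gm10143 (1908 bases) and Tmem258 (130 bases), Slbp overlaps Gm10459 (380 bases) and E2f8 overlaps Gm2788 (610 bases), and Pcna and Nasp have annotated pseudogenes; none of these partners is among the genes analysed here. The levels of all these replication genes are therefore uncertain, and how reads were divided was not tested.

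Among the groups of genes defined by complex or role, the enzymes that supply deoxynucleotides had the highest mean rho (0.631). Rrm1 and Rrm2, the large and small subunits of ribonucleotide reductase, were detected in 47 and 41 cells, and thymidylate synthase Tyms, which makes the DNA building block dTMP, in 42. Rrm2 ranged from 0 to 2368 TPM (median 47, mean 270.1, SD 443), Rrm1 from 0 to 1015 TPM (median 29.5, mean 134, SD 200.7) and Tyms from 0 to 642 TPM (median 25.5, mean 78.4, SD 115). All 3 peaked in cell T3_6, together with the single-strand DNA binding subunit Rpa2 (1275 TPM there) and the fork protection factor Tipin (1221 TPM). Tyms with Rrm2 had the highest rho of all 741 pairs (0.71), Tyms with Rrm1 had 0.62 and Rrm1 with Rrm2 0.56. Within sets the mean of these 3 pairs ran from 0.525 in T1 to 0.748 in T5.

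The next closest pairs involved Uhrf1, which recruits the maintenance DNA methyltransferase to new strands. Uhrf1 was detected in 37 cells (0 to 911 TPM, median 47). Its rho was 0.69 with the recombination factor Rad51ap1 (detected in 23 cells) and 0.65 with the chromatin ATPase Atad2 (38 cells). Rad51ap1 with Atad2 had 0.63, so these genes, which belong to no such group, were linked about as closely as the deoxynucleotide enzymes. Tyms with Tipin had 0.66 and Rrm2 with Uhrf1 0.64. The lowest pairs all involved genes found in 20 cells or fewer. They were Gins1 with Pold1 (-0.18), the base excision enzyme Ung with Nasp (-0.13) and Pold1 with Usp1 (-0.11).

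Pcna, the sliding clamp, was the most widely detected of the 40 genes. It was found in 54 cells (96.4%, 87.7 to 99.6) and ranged from 0 to 2122 TPM, with a median of 254 and a mean of 327 (SD 360), the highest mean of the 40 genes. Its closest partner was Tipin (0.59). Tipin was detected in 45 cells (0 to 1221 TPM, median 263.5, mean 308, SD 317). The flap endonuclease Fen1, which processes Okazaki fragments on PCNA, was detected in 36 cells (0 to 1694 TPM, median 4), and 34.9% of its total lay in cell T1_1. Its highest rho was with Slbp (0.64), the histone mRNA binding protein, which was in 39 cells (0 to 530 TPM, median 48).

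Priming and polymerase genes were lower and less coherent. Prim1, the catalytic primase subunit, was detected in 29 cells (0 to 680 TPM, median 1), Pola1, which extends its primers, in 33 (0 to 350 TPM, median 1), and Pold1, the catalytic subunit of polymerase delta, in 15 (0 to 418 TPM, median 0). Their mean rho was 0.158, and within sets it ran from -0.160 in T2 to 0.622 in T1. The histone chaperone Nasp was in 53 cells (0 to 1032 TPM, median 39), whereas the CAF-1 subunits, which deposit histones behind the fork, were in 17 (Chaf1a) and 19 (Chaf1b), and in 9 cells together. The mean rho of these 3 chaperone genes was 0.204.

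The remaining genes act in licensing, checkpoints, repair and chromatin, and ranged widely in detection. Cdc6 and the repressor E2f8 were detected in 14 cells each (25%, 14.4 to 38.4), the exonuclease Exo1 and the checkpoint adaptor Clspn in 18 each, and Ung in 20. Dtl, which directs destruction of the licensing factor Cdt1, was in 27 cells (0 to 241 TPM), and Usp1, which removes ubiquitin from PCNA, in 34 (0 to 429 TPM). Hells, a chromatin remodeller, was in 41 (0 to 344 TPM), Casp8ap2, a histone gene activator, in 40 (0 to 271 TPM), and Wdr76 in 39 (0 to 185 TPM). The highest values were spread over 20 cells, led by T3_6 with 5 genes and by T3_7 and T5_10 with 4 each.

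Cell-to-cell variation of the replication genes was close to that of other genes at the same level. It was measured as excess variation, the log2 of the squared coefficient of variation minus its running median over genes of similar mean TPM. The median excess of the 39 genes was 0.21, against 0.00 over all 7871 genes. Fen1 (1.51), Rrm2 (1.28) and Mcm7 (1.19), 3 of 39, were above 1, against 13.1% of all genes, and Casp8ap2 (-1.07) and Wdr76 (-1.05) were below -1, against 15.1%. Without the highest cell of each gene, the excess was 0.46 for Fen1 and 0.58 for Mcm7, both below 1, and 1.31 for Rrm2, while Pold1 (1.23) and Gins2 (1.08) came to lie above 1.

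A replication score was computed as the mean over the 39 genes of z-scored log2(TPM + 1). When each gene was set against the score of the other members, 37 of 39 had a rho of at least 0.3, and the median was 0.54. Against the full score, 8.84% of the 7832 genes outside the list reached 0.3, and their median was 0.10. Tyms (0.72), Tipin (0.71), Mcm4 (0.70), Rrm2 (0.70) and Uhrf1 (0.70) followed the other members most closely. Ung (0.18) and Pold1 (0.28) followed them least. With the number of genes detected in the cell, the members had a median rho of 0.25, against 0.19 over all genes. For the score itself this rho was 0.47, and the part of detection depth in the score was not tested beyond the values given.

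Other genes of DNA replication went with the score, to about the same degree as mitotic genes did (median rho 0.34 in both lists). Of 53 further replication genes that are not members, 47 entered, and 31 of these had a rho of at least 0.3 with the score, with a median of 0.34. The highest were Cdc45 (0.68, 27 cells), the helicase cofactor that acts with GINS, Mcm10 (0.66, 28 cells), the licensing inhibitor geminin, Gmnn (0.65, 41 cells), and DNA ligase Lig1 (0.63, 43 cells). Topbp1 (0.10) and Pola2 (0.15) were the lowest. The regulators of the G1/S step were less uniform: of 31 listed, 24 entered and 8 reached 0.3, with a median of 0.20. Fbxo5 (0.60), an inhibitor of the anaphase-promoting complex, Cdk2 (0.53), its partner cyclin E2, Ccne2 (0.51), and Cdca7 (0.42) were highest. Cyclin D2, Ccnd2, averaged 1178 TPM (SD 672), was found in 56 of 56 cells and had a rho of -0.05, and E2f3 had -0.03.

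Genome-wide, 45 genes outside the list (0.575%) had a rho of at least 0.5 with the score, and 21 (0.268%) had -0.3 or below. Among the highest were the microtubule regulator Stmn1 (0.71), Tyms-ps (0.68), Cdc45, Mcm10, Gmnn, Lig1, Brca1 (0.61), the origin recognition subunit Orc6 (0.61) and Fam111a (0.60), all over 56 cells. The 5 lowest were Gdap10 (-0.41), Cep63 (-0.40), Mlxip (-0.40), Sgsm3 (-0.38) and Trim25 (-0.37). The number at 0.5 or more was 20 with the number of genes detected held constant, 73 without set T2 and 92 without set T5.

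In the lists of growth, quiescence and effector genes, the numbers that reached 0.3 with the score were near the share of all genes outside the members (8.84%). Of 14 growth and interleukin-2 response genes that entered, 0 reached 0.3 (median 0.04), among them the interleukin-2 target Cish (0.24), Cad (0.23), Npm1 (0.22), Tfrc (0.14), Bcl2 (-0.24) and Ncl (-0.14). Of 8 quiescence genes, 0 reached 0.3 or -0.3 (median -0.03). They were led by Il7r (0.19), Txnip (0.06), the cyclin-dependent kinase inhibitor Cdkn1b (0.03) and Btg2 (-0.0041), with Foxo1 (-0.12) and Tob1 (-0.11) lowest. Of 11 Th2 cytokines, 1 reached 0.3, Il9 (0.33, in 13 cells), and the median was 0.18, against 0.10 over all genes outside the members.

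To ask which cells showed replication genes without mitotic genes, a mitotic score was computed in the same way from 47 of 50 mitotic genes, the others being detected in fewer than 10 cells. Mitotic genes were more tightly linked than replication genes (mean rho 0.288 for the 741 replication pairs and 0.404 for the 1081 mitotic pairs), and pairs of a replication and a mitotic gene had a mean of 0.191. The scores had a rho of 0.57 over 56 cells, and 0.42 with the number of genes detected held constant. Sets T1 (0.76), T3 (0.75), T4 (0.68) and T2 (0.64) had similar values, and T5 (0.22) had a lower one.

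The replication genes differed in how far they went with mitosis. Among helicase genes the rho with the mitotic score was 0.02 for Mcm7, 0.17 for Mcm3, 0.18 for Mcm2, 0.29 for Mcm6, 0.34 for Mcm5 and 0.41 for Mcm4. For the nucleotide enzymes it was 0.53 for Rrm2, 0.63 for Tyms and 0.65 for Rrm1. Of the 39 genes, 35 had a higher rho with the other replication genes than with the mitotic score. The 4 exceptions were Rrm1 (0.54 with replication, 0.65 with mitosis), Rfc4 (0.53 and 0.64), Clspn (0.44 and 0.49) and Nasp (0.38 and 0.40). Ung had the lowest value with mitosis (-0.11). Of the 47 mitotic genes that entered, 27 reached 0.3 with the replication score, and the median was 0.34. The kinetochore genes Spc25 (0.52) and Spc24 (0.51), the chromosomal passenger Birc5 (0.51) and the checkpoint kinase Bub1 (0.50) were highest, whereas Anln (0.03) and Psrc1 (0.05) were lowest. Among markers expressed from S phase to mitosis, Stmn1 (0.71), Smc2 (0.59), Hmgb2 (0.57) and Top2a (0.48) went with the replication score, and H2afx (0.25) and Lmnb1 (0.29) were lowest.

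The number of mitotic genes per cell, unlike that of replication genes, had a gap: 31 cells had 2 to 20 of the 50, 25 cells had 27 to 47, and no cell lay between. The gap was noticed in these values and was not a fixed threshold. Replication genes spanned a wide range on either side of it, from 13 to 40 genes above it (median 28) and from 4 to 35 below it (median 20).

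In 8 cells the replication score was above its median over the 56 cells and the mitotic score below its median. With tertiles in place of medians the number was 2 (T2_4 and T4_6). The 8 were T1_5, T1_6, T1_8, T2_4, T2_7, T4_6, T4_12 and T5_3. They had 24 to 35 of the 40 replication genes and 4 to 6 of the 6 MCM genes, with 5 to 20 of the 50 mitotic genes. The number of genes detected in them was 3978 (T5_3) to 6983 (T1_6), against a median of 4744 over all cells, and the part of depth in the undetected mitotic genes was not tested. Of the 8 cells, 3 lay within 0.1 of a score's median, T1_6 and T4_12 for the mitotic score and T2_7 for the replication score. T1 held 3 of them, T2 and T4 held 2 each, T5 held 1 and T3 held 0. Ccnb2, Cdc20 and Aurkb, which act in mitosis, were listed at 0 in all 8. Over all 56 cells they were detected in only 20, 22 and 16. Other genes of the mitotic list were present: Psrc1 and Kif20a were both detected in T1_5, T1_6, T2_4, T2_7 and T4_6 (38 and 33 of all 56). Tpx2 was detected in 3 of the 8 (33 of all 56) and Bub1 in 2 (16 of all 56). The cyclin Ccnb1 was at 6 TPM in T4_12 and listed at 0 in the other 7. Cdk1, on the same mitotic list, was detected in 5 of the 8 (34 of all 56 cells), at 300 TPM in T2_7 and 153 in T4_12. The rule used these mitotic genes, so their values describe the choice. Top2a, expressed from S phase to mitosis, was detected in 7 of the 8 (45 of all 56). Its level was 175 TPM in T4_12 and 40 in T2_7, against a median of 37.5 over all cells. It was 24 TPM in T1_8, 19 in T2_4, 17 in T1_6, 3 in T5_3, 2 in T1_5 and 0 in T4_6. Mki67, another marker of that list, was detected in 1 of the 8 (31 of all 56).

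Cell T1_8 was the highest of the 8 in replication score (0.78, rank 5 of 56). It had 35 replication genes, among them Mcm3 at 730 TPM, Mcm4 at 663, Rrm2 at 505 and Pcna at 267, with 11 mitotic genes and Mki67 listed at 0. Cell T4_12 (score 0.65) had 32 replication genes, with Mcm5 at 908 TPM and Mcm3 at 647, and 15 mitotic genes. Cell T5_3 (score 0.64) had 33 replication genes, with Pcna at 1361 TPM, Rrm2 at 864 and Mcm4 at 799, the highest Mcm4 of all cells, and 8 mitotic genes. The G1/S cyclin Ccne2 was at 160 TPM in T5_3, its highest value of all cells, at 105 in T1_5, 68 in T2_4, 39 in T4_12, 17 in T1_6 and 4 in T1_8 and T4_6, and listed at 0 in T2_7. Other cells reached 136 TPM (T5_10) and 124 TPM (T3_8 and T3_2). T4_6 had the fewest mitotic genes of the 8, with 5, beside 28 replication genes, Mcm3 at 518 TPM and Pcna at 412. Each of the 8 cells had some replication genes listed at 0, among them Uhrf1 in T4_6, Rrm2 and Tyms in T2_7, Fen1 and Rfc2 in T1_8, Mcm5 in T5_3 and Prim1 and Pola1 in T1_5, and a listed 0 can be a failed estimate.

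**Figure D5:**
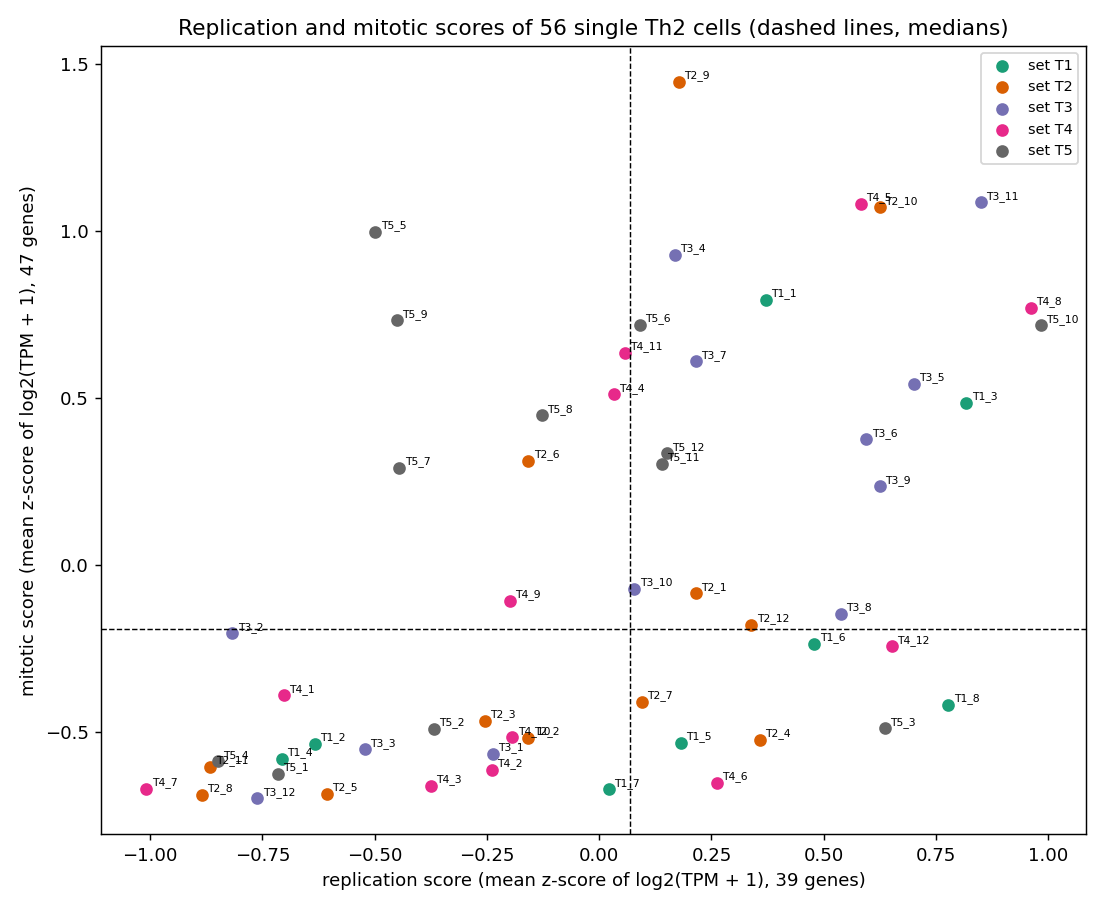
Replication score (39 genes) against mitotic score (47 genes) of each cell, coloured by set, with dashed lines at the medians. The 8 cells at lower right combine a high replication score with a low mitotic score, the 8 at upper left the reverse, and 20 cells lie in each of the other corners; splitting at medians makes opposite corners equal.

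The reverse combination held by construction for as many cells, since medians split both scores evenly. These 8 were T2_6, T4_4, T4_9, T4_11, T5_5, T5_7, T5_8 and T5_9, of which 4 came from set T5. Cell T5_5 had 13 replication genes and 38 mitotic genes, with Ccnb1 at 386 TPM and Ccnb2 at 377, while Mcm5, Tipin, Uhrf1 and Ccne2 were listed at 0. Cell T5_9 had 16 replication genes, only 1 of them an MCM gene, and 39 mitotic genes. Both still held nucleotide enzymes, with Rrm2 at 253 TPM in T5_5 and 338 TPM in T5_9.

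At the ends of the replication order, T5_10 (score 0.98, 37 genes), T4_8 (0.96, 36 genes) and T3_11 (0.85, 36 genes) were highest, and all 3 also had many mitotic genes (33, 39 and 47). T4_7 (-1.01, 4 genes), T2_8 (-0.88, 7 genes) and T2_11 (-0.87, 9 genes) were lowest, with 3, 2 and 6 mitotic genes. Each set held cells from both ends: the median number of replication genes was highest in T3 (28.5), followed by T4 (27), T1 (26.5), T2 (25) and T5 (20.5), with the lowest cell of each set at 4 to 11 genes and the highest at 34 to 40.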

How the data were processed

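Per the labels' protocols, single Th2 cells were captured on a Fluidigm C1. The deposited values are a score, namely TPM in whole numbers after rounding by the authors. The submitters' processing notes name mm9, Bowtie 0.12.2, Cufflinks and FastQC. Sequencing depth per cell is unknown, since TPM does not keep it, and a listed 0 can be a failed estimate: Tbp and Sdha, genes every cell uses, were detected in 28 and 36 of 56 cells. The pool of 10000 cells was not analysed here.

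Spearman rho, scores (pseudocount 1), excess variation and motif counts were computed with Python 3.11.15, scipy 1.17.1 and pandas 2.3.3 and tested on simulated data. Genes entered at 1 TPM or more in at least 10 cells. Partial rho used residuals of ranks. Genes were named by a written rule (all members by role, and the highest and lowest rho in each list). A gene that this rule would name is not reported here. Members and lists were chosen with earlier results of these data known. GRCm38 gave names, exon overlap and promoters only. Because the cells are 1 sample, no test between cells was run.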

Additional observations from a re-analysis of the deposited data

How the results depend on the processing

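In all, 171 alternative values of 14 results were computed, and 154 stayed within a margin. The margin was the SD over the 5 sets, 1.5 times for counts, and the SD over cells for the median number of genes. Of the 171, 0 changed sign, which a count could not do. Some alternatives could not move either. Each listed MCM, RFC and GINS gene was detected in at least 21 cells. Filters of at least 20 cells or at least 1 cell therefore left the mean rho within and between these complexes as it was. For some results the SD over sets was wide, 0.365 for Gins1 with Gins2 and 0.154 inside RFC, so staying within it says little. The fall inside RFC from 0.259 to 0.135 with the mitotic score held constant counted as within it. The mean rho of the replication genes was 0.241 with genes detected held constant and 0.213 with the mitotic score held constant, an alternative chosen after seeing the data. Holding the mitotic score constant gave 0.201 between MCM and RFC and 0.244 between MCM and GINS, and holding genes detected constant gave 0.253 between MCM and GINS. Cells high in replication and low in mitosis numbered 2 when tertiles replaced medians (T2_4 and T4_6). With numbers of genes detected in place of scores there were 6, of which 5 were among the 8. Replication genes with excess above 1 numbered 6 without set T2 and 7 without T3. Those below -1 numbered 1 without T1, without T4, with TPM rescaled per cell or without each gene's highest cell, and 0 without T2 or with detection in at least 20 cells. Genes outside the list at a rho of 0.5 numbered 20 with genes detected held constant, 73 without T2 and 92 without T5. Between RFC and GINS the mean rho of 0.192 became 0.127 with genes detected and 0.103 with the mitotic score held constant. The causes were not tested. No paired analysis was possible because the cells form 1 group. The rounding of TPM and the unknown depth limit genes near 1 TPM: the median cell had 26 replication genes at 1 TPM or more and 19 at 10 TPM or more.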
